A study of Homo sapiens with 3 samples.

Results

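The long noncoding RNA genes were taken from the array by their platform gene symbols. The rule kept symbols that begin with LINC or SNHG and a digit, symbols that end in -AS and a digit, and the names NEAT1, MALAT1, MEG3, H19, GAS5, MANCR, DANCR, TUG1, PVT1 and CYTOR. A probe also had to have a detection p-value under 0.01 on at least 1 of 3 arrays. The platform names 551 such probes for 458 genes, and 115 probes for 102 genes passed, out of 11062 named genes detected on at least 1 array. The members were thus chosen by the detection p-values of these same arrays, and the values that follow describe them. By class, the 102 genes are 13 snoRNA host genes, 5 individually named nuclear and tumour-associated RNAs, 47 antisense genes and 37 LINC genes.

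A375 is an established human melanoma line that grows attached to plastic. Its total RNA was hybridised to Illumina arrays in 3 states, 1 array for each, all in DMEM with 10% fetal bovine serum, penicillin and streptomycin. Adherent cells were the source of suspended cells, which were kept on sterile plastic dishes, and suspended cells that had 1 day on a culture dish with fresh medium to attach again are called reattached. How long cells were in suspension and how many cultures gave each RNA was not stated in the labels. With 1 array per state there is no replicate check, no test between states was made, and culture, array and state cannot be told apart. In such bulk RNA, fewer cells with a transcript and less of it per cell cannot be told apart either.

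Long noncoding RNAs are transcripts that are not translated into a protein of known function and act, where a role is known, as RNA. Antisense genes are transcribed from the strand opposite to a protein-coding gene and often start near it. Genes of the SNHG series are hosts of small nucleolar RNAs (snoRNAs), which are cut from their introns and guide the modification of ribosomal RNA, while the spliced exons are usually short-lived because translation exposes them to nonsense-mediated decay.

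Values are given first as the scanner signal of each array, which is linear and not normalized, and then as differences of normalized log2 levels. Undetected probes had a median signal of 50.9 for adherent, 53.3 for suspended and 51.0 for reattached cells, and detected probes 233, 262 and 247, so that a raw signal can stand higher in suspension where the normalized level does not. The normalization adds an offset of 16 to each value, which shrinks the differences of dim genes. Detection on 1 or both of 2 arrays was needed to compare a gene between them. Where it was detected on only 1 of them the difference is a bound, written as at least so many fold and set to 0 where the bound gives no direction. Of 10 melanocyte lineage markers, 4 were detected on every array (SOX10, MITF, S100A1 and GPNMB). PMEL, MLANA, TYR, TYRP1, DCT and S100B were not detected on any. The 4 detected markers stood higher in suspended than in adherent cells, with a median difference of 0.54, and their part in the results below was not tested. Of the markers of other cell types, 4 of 8 for fibroblasts, 2 of 8 for keratinocytes, 3 of 6 for leukocytes and 1 of 4 for endothelium were detected on at least 1 array. The keratinocyte marker KRT14 was at least 1.99-fold lower in suspended than in adherent cells and, after reattachment, at least 1.66-fold over its suspended level. KRT10, the other one detected, differed by only -0.06 in suspension and -0.07 from suspended to reattached cells. The fibroblast markers LUM (-0.42), DCN (-0.31) and PDGFRB (-0.01) were below 0 in suspension, and PDGFRA was at least 1.24-fold higher. Their part in the results was not tested either.

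The members sat close to the detection limit more often than named genes did in general. In all, 22.3% of the genes under the rule were detected, against 55.2% of all named genes. Of the 102 genes, 61 were detected on all 3 arrays, 10 on 2 and 31 on 1. The adherent array detected 83 of them, the suspended 80 and the reattached 71, and 14, 11 and 6 were detected on that array alone. Of all named genes detected on at least 1 array, 90.3% were detected on all 3 and 5.96% on 1, against 59.8% and 30.4% of the members. For comparison, all named genes numbered 10651, 10544 and 10254 detected in the same order. Just inside the threshold, at a lowest detection p of 0.00909, stood 8 probes, such as that of LINC03106 with signals of 68.8 in adherent, 53.5 in suspended and 62.4 in reattached cells. The 4 probes just outside, at 0.0104, included that of JARID2-AS1 with signals of 59.4, 72.2 and 63.3. The signals on either side of the threshold were alike.

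Several well-known members of the family were not among the 102. The probe of MALAT1, an abundant RNA of nuclear speckles, gave signals of 43.0, 44.7 and 45.4 and that of GAS5, the host gene that accumulates when growth stops, 57.8, 62.8 and 55.9 in adherent, suspended and reattached cells. Neither was detected on any array, and the same held for both probes of MEG3, for H19 and for SNHG3, SNHG20 and SNHG28. A probe at background says only that this oligonucleotide gave no signal over the negative controls. No probe was named NEAT1, the RNA that scaffolds paraspeckles. RNA of the genes for its protein partners was measured, for 17 of 19 listed paraspeckle proteins. These genes had a median difference of -0.04 between suspended and adherent cells. Of them 13 lay below 0, where 50.1% of all genes detected on both arrays did. At 1.5-fold 0 were past the threshold, where 2.71% of all genes were higher and 2.23% lower. DAZAP1 (-0.48) and PSPC1 (-0.39) stood lowest. RNA was measured for the genes of all 16 listed nuclear speckle proteins too, with a median of -0.01 and 0 past 1.5-fold. They ranged from -0.40 for the splicing factor gene SRSF7 to 0.19 for the scaffold protein gene SRRM2.

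Across states, most of the long noncoding RNAs detected on both arrays of a comparison differed little between them. Between suspended and adherent cells 29 other members had only a bound, which does not show how near they lay. Among members detected on both arrays, 67 in number, the median difference between suspended and adherent cells was 0.01, the quartiles were -0.13 and 0.16 and 74.6% lay within 1.2-fold. For all 10204 named genes detected on both arrays the median was -0.001, the quartiles -0.15 and 0.15 and 72.8% lay within 1.2-fold. Between reattached and adherent cells, 63 members had a median of 0.03 and 79.4% within 1.2-fold, against 0.01 and 81.1% for all genes. Between reattached and suspended cells the median was 0.04 and 82.5% lay within 1.2-fold, against 0.01 and 81.3%. The share of members within 1.2-fold was thus close to that of all genes in each comparison. The standard deviation was 0.30 for members and for all genes in suspension against adherence. It was 0.24 against 0.22 between reattached and adherent cells, and 0.18 against 0.22 between reattached and suspended cells. Members and all genes were not matched for level.

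**Figure D1:**
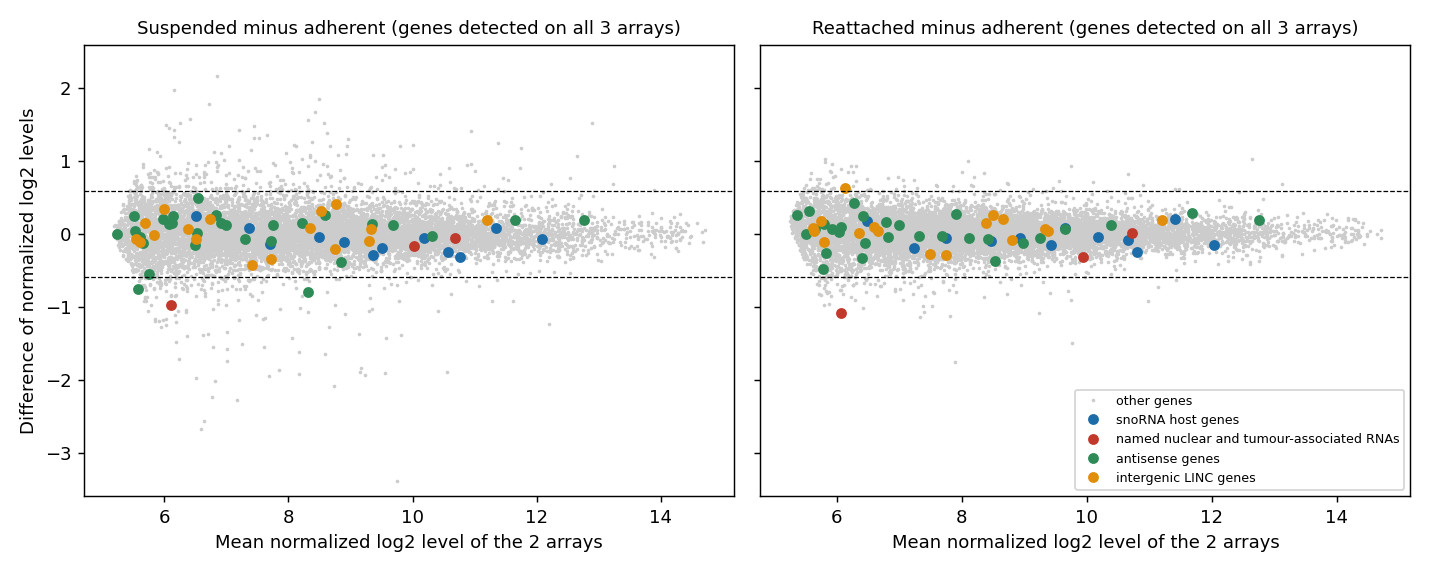
Difference of normalized log2 levels against the mean normalized log2 level of both arrays, for genes detected on all 3 arrays (grey, other genes; colours, the 4 classes of long noncoding RNA genes; 1 point per gene, 1 array per state; dashed lines at 1.5-fold). Most of the 61 members lie between the dashed lines, and MANCR, at -0.98 on the left and -1.08 on the right, is the lowest of them in both panels.

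Past 1.5-fold between suspended and adherent cells stood 5 of 96 members compared, 4 lower and 1 higher. The 4 lower genes are 4.17% of the members, where 2.23% of all 10991 genes compared were that much lower, and the 1 higher gene is 1.04%, where 2.71% of all genes were that much higher. At 2-fold no member was past the threshold in either direction, where 0.655% of all genes were lower and 0.5% higher. With so few genes these shares say little about the members as a class, and the genes themselves carry the description.

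MANCR, the mitotically associated long noncoding RNA, was the lowest member in suspension. Its signals were 129 in adherent, 88.3 in suspended and 77.6 in reattached cells, all detected. The detection p was 0.0039 in suspended and in reattached cells. Its normalized level after reattachment, 5.52, was near 5.29, the lowest of any detected probe on that array. Adherent cells stood highest and reattached cells lowest. MANCR was 1.97-fold lower in suspension (-0.98) and 2.12-fold lower after reattachment (-1.08) than in adherent cells, and it lay past 1.5-fold in both comparisons under each of 8 alternative settings. The change from suspended to reattached cells was -0.10.

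CYTOR, the cytoskeleton regulator RNA, had signals of 93.1, 74.3 and 71.4 in the same order. It was detected in adherent cells and, just under the threshold, in suspended cells (detection p 0.00779), but not after reattachment (0.0104). The difference was -0.71, or 1.64-fold lower, in suspension, and at least 1.54-fold lower after reattachment. Its second probe, with signals of 72.9, 73.5 and 63.9, was detected in adherent cells only. That probe gave bounds of at least 1.09-fold lower in suspension and at least 1.004-fold lower after reattachment. The call of 1.5-fold in suspension held under 3 of 7 alternative settings, which reached -0.41. CYTOR has a near-identical copy elsewhere on the same chromosome, so the value is uncertain as that of a single gene.

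Both genes have an entry in the RefSeq table of promoters (build GRCh38.p14), which gives 250 bases before and 50 after the annotated start. These promoters are shown because the 2 genes stayed below the adherent level on both other arrays and because each holds a pair of letters TGANTCA, the site of AP-1 factors. Other members also stayed below the adherent level on both other arrays, such as SLCO4A1-AS1 (-0.80 in suspension, -0.38 after reattachment) and FGF14-AS2 (-0.55 and -0.48). Capitals mark the TGANTCA matches.
MANCR (chr10:4678021-4678320, minus strand): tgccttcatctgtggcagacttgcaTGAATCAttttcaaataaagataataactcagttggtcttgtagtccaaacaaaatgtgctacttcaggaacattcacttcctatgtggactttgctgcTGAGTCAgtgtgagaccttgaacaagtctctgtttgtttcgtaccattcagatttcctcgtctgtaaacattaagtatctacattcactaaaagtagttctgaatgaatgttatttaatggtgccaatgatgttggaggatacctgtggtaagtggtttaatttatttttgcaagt
CYTOR (chr2:87455177-87455476, plus strand): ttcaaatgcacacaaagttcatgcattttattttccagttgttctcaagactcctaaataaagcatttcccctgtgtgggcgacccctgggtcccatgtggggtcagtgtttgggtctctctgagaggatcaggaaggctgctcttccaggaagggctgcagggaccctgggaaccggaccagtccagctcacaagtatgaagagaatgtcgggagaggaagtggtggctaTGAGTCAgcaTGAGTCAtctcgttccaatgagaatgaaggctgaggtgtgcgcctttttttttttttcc
The matches begin at positions -225 and -126 before the start of MANCR and at -19 and -9 before that of CYTOR, where the base before the start is -1. The motifs TGANTCA (AP-1), GGAATG (TEAD), CACGTG (E-box) and the NF-kB motif were searched on both strands in the first listed promoter of each gene. TGANTCA was found in 6 of 79 members with a promoter, 7.59%, and in 7.76% of 27305 genes, so it was no more frequent among the members. At least 2 matches, a count made after the promoters were seen, were found in 0.505% of all genes and in 3 of 79 members, 3.80%. MANCR and CYTOR, whose pairs had been seen, are among these 3, so the contrast was in part built in. The third, LINC00339, was at -0.10 in suspension and 0.05 after reattachment, and the other members with 1 match were SERTAD4-AS1 (-0.38 in suspension), ITPK1-AS1 (0.19) and LDLRAD4-AS1, which was detected in suspension only. GGAATG was found in 5 member promoters, 6.33%, against 14.0% of all genes, CACGTG in 7, 8.86% against 7.43%, and the NF-kB motif in 6, 7.59% against 5.67%. Of the 7 members past 1.5-fold in any comparison, 5 had a promoter entry. Those of C1RL-AS1 and LINC01089 held none of these motifs, and that of SLCO4A1-AS1, given below, held no TGANTCA. A match is a description of the letters and not of binding.

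Of the other RNAs named one by one, DANCR, an RNA first described as holding back differentiation, was well detected with signals of 1121, 1095 and 863, and differed by -0.16 in suspension and -0.32 after reattachment. TUG1, which RefSeq now lists as protein coding, had signals of 1680, 1770 and 1618 and differences of -0.06 and 0.02. PVT1, the RNA gene beside the oncogene MYC, was detected in suspended cells alone, with signals of 58.2, 75.2 and 61.2, at least 1.07-fold higher there than in adherent cells. MYC itself differed by 0.08 in suspension. DANCR and TUG1 were thus under 1.5-fold on every array, and PVT1 lay at the detection limit.

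**Figure D2:**
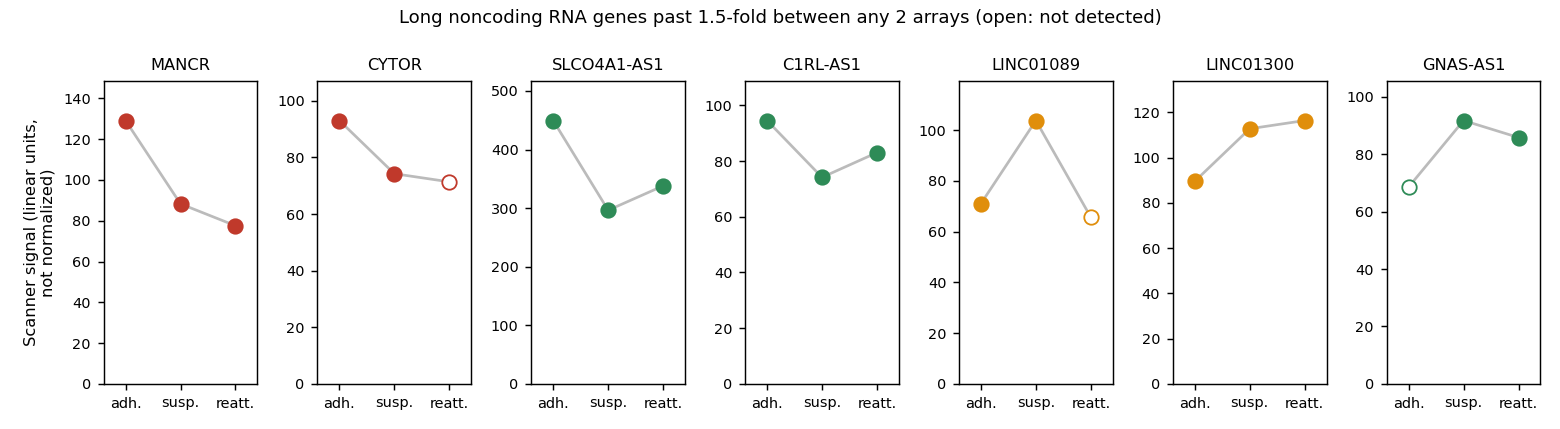
Scanner signal (linear units, not normalized, axes from 0) of the 7 long noncoding RNA genes past 1.5-fold between any pair of arrays, 1 array per state (filled, detected at p under 0.01; open, not detected). MANCR falls from 129 in adherent to 88.3 in suspended and 77.6 in reattached cells, whereas SLCO4A1-AS1 is lowest in suspension at 296.

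Among antisense genes, 2 of 43 compared were past 1.5-fold lower in suspension and 0 higher, where 2.23% and 2.71% of all genes were, so that the counts are near the share of all genes. SLCO4A1-AS1, antisense to the organic anion transporter gene SLCO4A1, had signals of 449 in adherent, 296 in suspended and 338 in reattached cells, far over background on every array. It was 1.74-fold lower in suspension (-0.80), differed by 0.42 from suspended to reattached cells and stood at -0.38 against adherent cells after reattachment. The fall in suspension lay past 1.5-fold under each of 8 alternative settings, from -0.80 to -0.69. SLCO4A1 itself was at -0.27 in suspension and -0.31 after reattachment. Like MANCR and CYTOR, SLCO4A1-AS1 stayed below the adherent level on both other arrays. Its promoter is printed for comparison with the pair above. It holds no TGANTCA, and its capitals mark an E-box that begins at -126 and an NF-kB match that begins at -95.
SLCO4A1-AS1 (chr20:62666572-62666871, minus strand): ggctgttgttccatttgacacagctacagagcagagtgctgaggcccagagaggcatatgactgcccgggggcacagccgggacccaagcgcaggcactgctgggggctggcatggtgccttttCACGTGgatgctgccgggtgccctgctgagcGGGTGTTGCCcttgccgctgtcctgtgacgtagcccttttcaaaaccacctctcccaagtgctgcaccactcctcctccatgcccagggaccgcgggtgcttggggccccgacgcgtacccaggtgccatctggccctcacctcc

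C1RL-AS1, antisense to the complement protease-like gene C1RL, had signals of 94.6, 74.2 and 83.0 and was detected on each array, in suspension at a detection p of 0.00779. It was 1.69-fold lower in suspension (-0.76) and differed by 0.50 from suspended to reattached cells. The call in suspension held under 5 of 8 alternative settings, which reached -0.44. C1RL went the other way, at least 1.32-fold higher in suspension, where it was detected as it was not in adherent cells. FGF14-AS2 was also lower, at -0.55 in suspension and -0.48 after reattachment, with signals of 97.5, 82.8 and 78.0. PAX8-AS1, with signals of 84.7, 67.1 and 60.6, was detected in adherent cells only and was at least 1.42-fold lower in suspension.

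On the other side, DLGAP1-AS1 stood highest among antisense genes measured on both arrays, at 0.50 in suspension, with signals of 111, 155 and 122. GNAS-AS1, from the imprinted GNAS locus, had signals of 68.6, 91.7 and 85.8 and was detected in suspended and reattached cells only. Its bound in suspension was 0.58 on the log2 scale, just under 1.5-fold, and it was at least 1.56-fold higher after reattachment. GNAS differed by 0.23 and 0.10. OIP5-AS1, known as cyrano, had signals of 381, 490 and 347 and differed by 0.26 in suspension and -0.33 from suspended to reattached cells. ZEB1-AS1, antisense to the EMT factor gene ZEB1, stood at 0.15 in suspension and 0.42 after reattachment, while ZEB1 stood at 0.31 and 0.10.

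Antisense genes and the genes they are named after were set side by side. Of 47 antisense genes, 37 had a detected partner, and 19 pairs were detected on all 3 arrays. Between reattached and suspended cells 11 of these pairs lay on the same side of 0 and 7 on opposite sides. Between reattached and adherent cells the counts were 13 and 6. In suspension against adherence they were 11 and 8. Both genes were lower for SLCO4A1-AS1 and SLCO4A1, for SERTAD4-AS1 (-0.38) and SERTAD4 (-0.23) and for VPS9D1-AS1 (-0.13) and VPS9D1 (-0.28). Opposite signs were seen for MRPL20-AS1 (0.12) and the mitochondrial ribosomal protein gene MRPL20 (-0.30) and for ITPK1-AS1 (0.19) and ITPK1 (-0.28). Strong changes of a partner were also seen where the antisense probe was near the limit. The matrix glycoprotein gene THBS2 was 2.74-fold higher in suspension, whereas THBS2-AS1 was detected in adherent cells only, with signals of 69.0, 60.7 and 55.5 and no measurable difference. ID2, an inhibitor of helix-loop-helix factors, was at least 1.74-fold higher in suspension and ID2-AS1, detected there only, at least 1.05-fold.

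**Figure D3:**
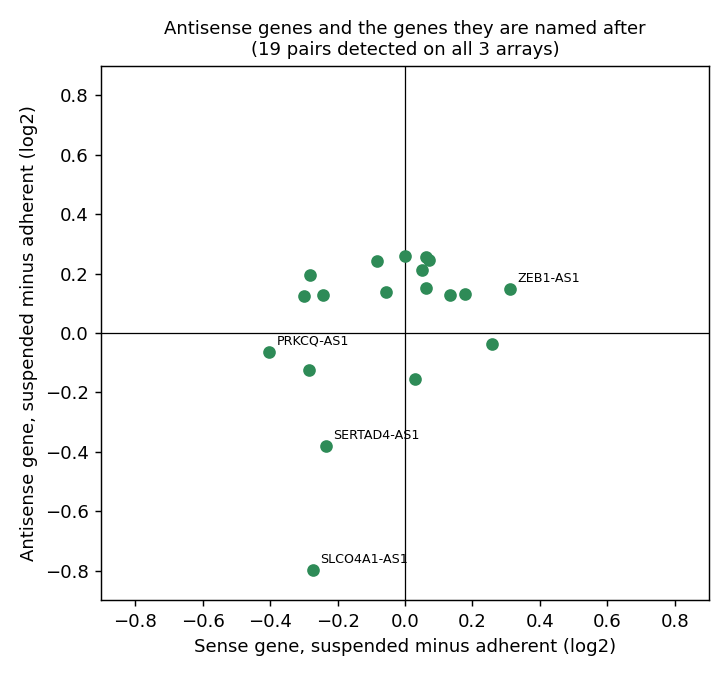
Suspended minus adherent difference (normalized log2 level) of 19 antisense genes, vertical axis, against that of the genes they are named after, horizontal axis; each point is a pair detected on all 3 arrays, 1 array per state. In 11 pairs both genes lie on the same side of 0, and SLCO4A1-AS1 at -0.80 lies farthest from 0.

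LINC genes are named for their place between protein-coding genes. Of 35 compared between suspended and adherent cells, 1 was past 1.5-fold, higher, and 0 lower, which is near the 2.71% and 2.23% of all genes. That gene was LINC01089, an RNA described in breast cells as repressed by EGF, with signals of 71.0, 104 and 65.6. Suspended cells stood highest, at 1.70-fold over adherent cells (0.76), and it was not detected after reattachment, at least 1.62-fold lower than in suspension. Its second probe, detected in adherent cells only with signals of 69.0, 58.3 and 59.6, gave no direction for suspended against adherent cells. The rise of the brighter probe thus has no second measurement, and it lay past 1.5-fold under 3 of 7 alternative settings.

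Other LINC genes moved less. LINC00623 had signals of 406, 576 and 439 and stood at 0.42 in suspension, and LINC01293, with 358, 480 and 401, at 0.32. LINC01278 was lower with both of its probes, at -0.42 and -0.47, from signals of 229, 195 and 187 and of 234, 193 and 162. LINC00997 was at -0.35 in suspension and -0.29 after reattachment. LINC01018, with signals of 2208, 2737 and 2415, LINC00938 and all 3 probes of LINC00339 lay within 0.20 of the adherent level in both comparisons. Of the nearest protein-coding genes in RefSeq, 22 were detected for the 37 LINC genes and MANCR, CYTOR, DANCR and PVT1 together. Only 8 pairs were detected on all 3 arrays, with 4 on the same side of 0 and 4 on opposite sides in suspension. The counts were 5 and 2 between reattached and suspended cells, and 7 and 1 between reattached and adherent cells. The T-box factor gene TBX2, next to LINC02875, was 1.96-fold higher in suspension and the G-protein regulator RGS16, next to LINC01686, 2.01-fold lower, whereas both LINC genes were detected in suspension alone, at least 1.12-fold and 1.08-fold higher.

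The snoRNA host genes were the class with the steadiest detection, 12 of 13 on all 3 arrays. None was past 1.5-fold in any comparison, which for 13 genes is near the share of all genes. Between suspended and adherent cells 10 of 13 lay below 0, with a median of -0.11, against a median of -0.001 and 50.1% below 0 for all genes detected on both arrays. Under median scaling, which moved the median of all genes to 0.11, the host gene median was 0.01 and 6 of 13 lay below 0; relative to all genes it was lower in either case. With the mean over probes the median was -0.05 and 8 of 13 lay below 0. After reattachment 9 of 12 measured on both arrays lay below the adherent level, with a median of -0.07. For all genes 47.1% lay below it, with a median of 0.01.

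SNHG32 had signals of 1928, 1698 and 1572 and a difference of -0.31 in suspension. SNHG1, host of a run of box C/D snoRNAs that guide methylation, had signals of 1668, 1530 and 1512 and stood at -0.25. Suspended and reattached cells were both below adherent cells for these host genes. SNHG9 was at -0.29 and SNHG10 at -0.31 in suspension, and SNHG10 was not detected after reattachment and at least 1.44-fold lower than in adherent cells, with signals of 89.6, 84.2 and 71.1. SNHG4, with 116, 143 and 124, stood at 0.25, and SNHG6 (0.08) and SNHG12 (0.08) were the only other host genes above 0. SNHG12 crossed to -0.19 after reattachment. The remaining host genes, SNHG5, SNHG7, SNHG8, SNHG11, SNHG15 and SNHG17, lay between -0.19 and -0.04 in suspension. SNHG7 had 3 probes that disagreed, at -0.19, -0.29 and 0.49, and SNHG5 had 2 of opposite sign, at -0.07 and 0.10.

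**Figure D4:**
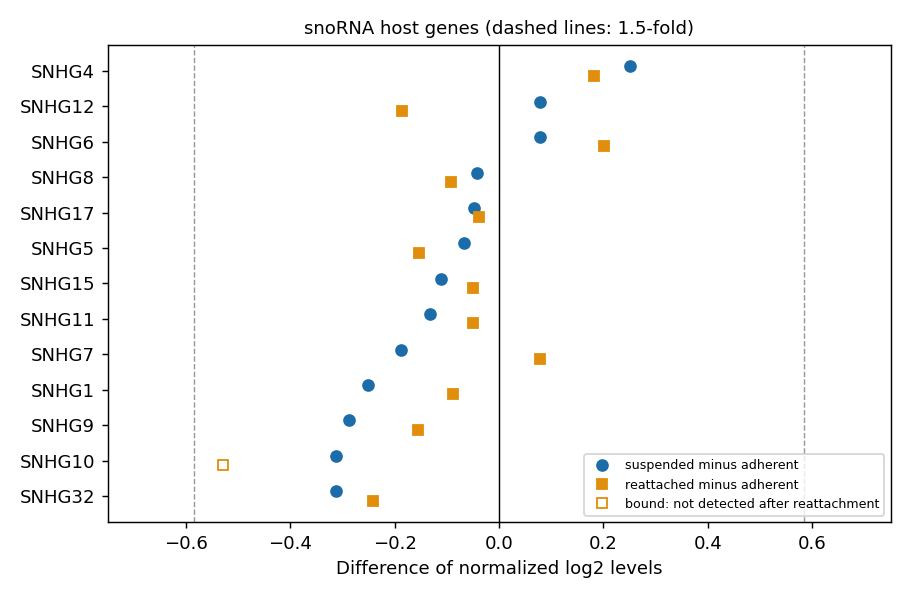
Difference of normalized log2 levels from adherent cells for the 13 detected snoRNA host genes (blue circles, suspended; orange squares, reattached; open square, a bound; 1 array per state; dashed lines at 1.5-fold). In suspension 10 of 13 lie below 0, from -0.31 for SNHG32 to 0.25 for SNHG4, and none reaches 1.5-fold.

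Many snoRNA host genes share a start with the messages of the translation machinery, a C followed by a run of pyrimidines that ties translation of those messages to growth signals. The starts of the host genes in the RefSeq promoter table are shown for that reason, 10 bases before to 25 after the annotated start. Capitals mark a C within 4 bases of the start followed by at least 4 C or T.
SNHG5 (chr6:85678709-85678743, minus strand): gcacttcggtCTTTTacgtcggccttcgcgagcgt
SNHG32 (chr6:31834906-31834940, plus strand): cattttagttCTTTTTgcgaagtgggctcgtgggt
SNHG4 (chr5:139274091-139274125, plus strand): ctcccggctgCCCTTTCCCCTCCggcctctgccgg
SNHG12 (chr1:28581849-28581883, minus strand): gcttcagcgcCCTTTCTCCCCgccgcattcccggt
SNHG7 (chr9:136728160-136728194, minus strand): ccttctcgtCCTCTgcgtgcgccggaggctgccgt
SNHG17 (chr20:38435304-38435338, minus strand): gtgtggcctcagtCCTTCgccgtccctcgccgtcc
SNHG8 (chr4:118278752-118278786, plus strand): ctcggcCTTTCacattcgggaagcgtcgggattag
SNHG1 (chr11:62855861-62855895, minus strand): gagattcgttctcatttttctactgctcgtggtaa
SNHG10 (chr14:95534848-95534882, minus strand): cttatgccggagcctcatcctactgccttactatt
SNHG11 (chr20:38446644-38446678, plus strand): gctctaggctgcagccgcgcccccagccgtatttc
By this definition 7 of 10 host genes with an entry had the tract, against 15.3% of all 27305 genes in the table. SNHG1, SNHG10 and SNHG11 had none within 4 bases of the annotated start, which says only that these letters are not there. The window of SNHG11 does hold a C followed by 4 C, farther after the start. SNHG10, SNHG1 and SNHG11, without the tract, differed by -0.31, -0.25 and -0.13 in suspension. Of those with it, SNHG32 (-0.31), SNHG7 (-0.19), SNHG5 (-0.07), SNHG17 (-0.05) and SNHG8 (-0.04) lay below 0. SNHG4 (0.25) and SNHG12 (0.08) lay above. A part of the tract in these differences was not tested.

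Genes of proteins linked to these RNAs were listed too. Of 30 listed translation genes that share the pyrimidine start, 23 were detected, with a median of -0.02 in suspension, 15 below 0 and 0 past 1.5-fold. The initiation factor gene EIF3F (-0.30) and the ribosomal protein gene RPS6 (0.27) were farthest from 0. RNA was measured for the genes of all 16 listed snoRNP proteins, with a median of -0.06 and 11 below 0. For all genes detected on both arrays the median was -0.001 and 50.1% lay below 0. The snoRNP genes ranged from RUVBL2 (-0.32), an assembly ATPase, and SNU13 (-0.30), a core box C/D protein, to NAF1 (0.27). NAF1 is an assembly factor of box H/ACA particles. For nonsense-mediated decay 12 of 16 listed genes were detected, with a median of 0.04. The kinase SMG1 stood at -0.35 and the decay factor SMG5 at 0.17. None of these lists had a member past 1.5-fold in any of the 3 comparisons. With 2.71% of all genes that much higher and 2.23% lower in suspension, and smaller shares in the other comparisons, a count of 0 in lists of this size is near the share of all genes.

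From suspension to reattachment, 0 of 88 members compared were past 1.5-fold higher, where 0.821% of all 10715 genes were, and 1 was lower, LINC01089 as given above, where 1.09% of all genes were. At 2-fold the members had 0 in each direction, against 0.205% of genes higher and 0.112% lower. This comparison and that of suspended with adherent cells share the suspended array. The largest differences measured on both arrays were those of C1RL-AS1 (0.50), SLCO4A1-AS1 (0.42) and CD27-AS1 (0.36), and in the other direction OIP5-AS1 (-0.33), SNHG12 (-0.27) and DLGAP1-AS1 (-0.25). LINC02180 was at least 1.31-fold lower.

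Between reattached and adherent cells, 2 of 91 members were past 1.5-fold lower, MANCR and CYTOR, where 1.1% of all 10821 genes were. Past 1.5-fold higher were 2, GNAS-AS1 and LINC01300, where 0.887% were. LINC01300 had signals of 89.5 in adherent, 113 in suspended and 116 in reattached cells, and stood at 0.35 in suspension and 0.63, or 1.54-fold, after reattachment. Its call held under 5 of 8 alternative settings and that of GNAS-AS1 under 4 of 7. The call of CYTOR after reattachment held under 3 of 7, which reached -0.31. MANCR was the only member past 2-fold in any of the 3 comparisons; 0.102% of all genes were past 2-fold lower after reattachment and 0.037% higher.

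A second probe gives the only repeat measurement that the arrays hold. Of 11 members with more than 1 detected probe, 7 had at least 2 probes detected on both the suspended and the adherent array, and 6 in each of the other comparisons. The probes had the same sign in 3 of 7 between suspended and adherent cells, in 2 of 6 between reattached and suspended cells and in 2 of 6 between reattached and adherent cells. The gap between the lowest and highest probe had a median of 0.15, 0.20 and 0.27 in that order. It was widest for SNHG7, at 0.79 in suspension and 0.84 after reattachment, both against adherent cells. MANCR, SLCO4A1-AS1 and C1RL-AS1 have no second detected probe.

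**Figure D5:**
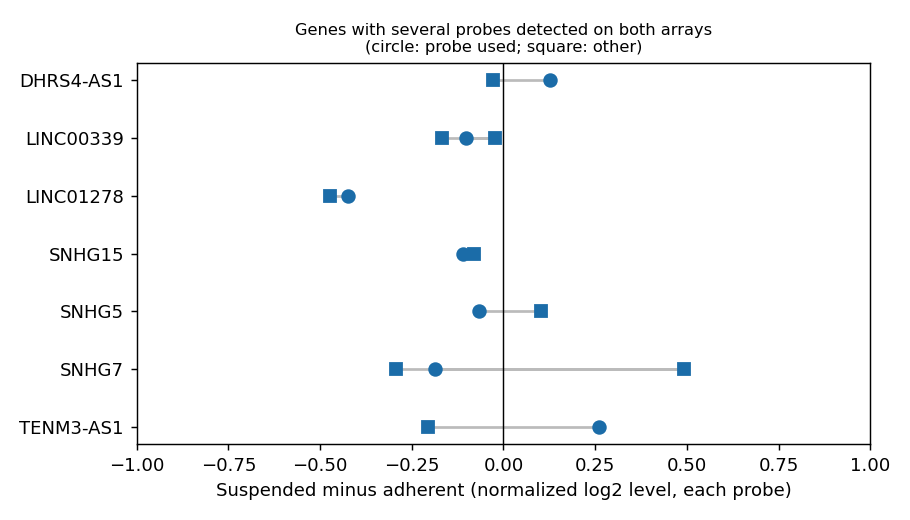
Suspended minus adherent difference (normalized log2 level) of each probe detected on both arrays, for the 7 genes with more than 1 such probe (circles, the probe used; squares, other probes; 1 array per state). The probes of LINC01278 lie at -0.47 and -0.42, whereas those of SNHG7 lie from -0.29 to 0.49.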

How the data were processed

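Per the file headers, the deposited scanner table gives each probe a signal intensity and a detection p-value on every array. These intensity values are linear and differ in scale between arrays; no label or header names the scanner software. A deposited table of the authors' normalized intensity values, nearly alike in distribution (medians 58.1) and made by an unstated method, served as an alternative.

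Background correction and quantile normalization used neqc of limma 3.58.1 (R 4.3.3), with an offset of 16 and log2 values; Python 3.11.15, numpy 2.4.6, pandas 2.3.3 and matplotlib 3.10.9 did the rest. Of 47323 probes, 30113 had 1 gene symbol in the platform annotation, 8 had several and 17202 were unnamed here. Of several detected probes, the one with the highest mean level stood for its gene. Undetected values were set no lower than the dimmest detected probe of their array. Of the 102 members, 100 matched the RefSeq gene table (GRCh38.p14) by Entrez ID, and 79 had an entry in its promoter table. Named in the text were host genes and individually named RNAs in full, members past 1.5-fold, some of the 5 highest and 5 lowest LINC and antisense genes per comparison, some by level and partners; THBS2-AS1, ID2-AS1, LINC02875, LINC01686 and LDLRAD4-AS1, and the genes beside them, were chosen after their values were seen. The members, lists and thresholds were chosen with earlier results of these data known. The steps were tested on simulated data. Precision is limited by the number of arrays and by signal over background. Alternatives were 2 other normalizations, an offset of 50, background left in, the authors' values, detection p under 0.05, detection on all 3 arrays and the mean over probes.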

Additional observations from a re-analysis of the deposited data

How the results depend on the processing

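No paired analysis was possible because each state has 1 array and no comparison had a test. Of 1342 repeats of the differences of 59 named genes under 8 alternatives, 0 gave a gene past 1.5-fold the opposite sign, and 2 moved by over 1.5-fold, both of LINC01089 with the mean over probes, which takes in a probe not detected in suspension or after reattachment (0.13 in suspension and -0.02 from suspension to reattachment). Suspended against adherent, the 1 gene 1.5-fold higher became 3 with median scaling, 2 at detection p under 0.05, and 0 with offset 50, background left in, the authors' values, detection on all 3 arrays or the mean over probes; the 4 lower became 2 with offset 50, background left in or the authors' values. Reattached against suspended, the 0 higher became 1 at p under 0.05, the 1 lower became 0 with offset 50, background left in, the authors' values, detection on all 3 arrays or the mean over probes, and the median moved to -0.094 with median scaling, which moved that of all genes to -0.13. Reattached against adherent, the 2 higher became 0 with offset 50, background left in or the authors' values and 1 with detection on all 3 arrays; the 2 lower became 1 with those 4 settings or the mean over probes and 4 at p under 0.05; and the 1 gene 2-fold lower became 0 with offset 50, background left in or the authors' values. A larger offset or background left in shrinks differences of dim genes by construction, a stricter filter leaves fewer genes, and the cause of the other moves was not tested. CYTOR, LINC01089, LINC01300, C1RL-AS1 and GNAS-AS1 were each under 1.5-fold in at least 3 settings. Of the 102 genes, 31 were detected on 1 array only, so that signal over background limits what their differences can show.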
